A study of Mus musculus with 15 samples.

Results

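The genes described are those of the proteasome, taken as every row of the count and TPM tables whose name begins with Psm, a letter from a to g and a number, with pseudogenes left out. The rule found 51 of the 56748 genes, and 49 of them had enough reads to be tested. The other two, Psma8 and Psmb11, are subunits known from the testis and the thymic cortex. Psma8 reached at most 0.26 CPM (read counts scaled to a common library size) and Psmb11 at most 0.054 CPM in any library. Of the 51, 31 encode constitutive subunits, 3 (Psmb8, Psmb9 and Psmb10) encode the inducible catalytic subunits of the immunoproteasome, and 6 encode activators of the particle or its inhibitor. The rest are assembly chaperones, the tissue-restricted pair, and Psmc3ip and Psme3ip1, which carry a matching name without being subunits.

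RNA was sequenced from 15 libraries of T helper 2 (Th2) cells, the helper T cells that make interleukins 4, 5 and 13, grown in culture from naive CD4+ cells of the spleens of female mice. The control cells were Asb2fl/fl, in which Asb2 is flanked by sites for Cre, and the cells called cKO were VEC-Cre;Asb2fl/fl, in which Cre is driven by the VE-cadherin promoter, known from endothelium and the blood cells that arise from it. All groups had 3 days of priming on anti-CD3ε (5 µg/ml) with anti-CD28 (1 µg/ml), interleukin 2 (10 ng/ml), interleukin 4 (40 ng/ml) and an antibody that blocks interferon gamma (10 µg/ml), and then 3 days in interleukins 2 and 4 (20 ng/ml each). Stimulated cells received coated anti-CD3ε (3 µg/ml) and soluble anti-CD28 (2 µg/ml) on day 5 for 24 h, which gave 3 non-stimulated and 5 stimulated control libraries and 3 non-stimulated and 4 stimulated cKO libraries. The labels do not give the ages of the mice, nor do they say that the libraries came from separate mice. The p-values below therefore rest on the spread between libraries, which may be technical.

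The proteasome is the protease that degrades proteins tagged with ubiquitin. Its 20S core is a stack of alpha and beta rings in which the products of Psmb5, Psmb6 and Psmb7, all subunits of the beta rings, cut proteins, and its 19S cap binds ubiquitin chains, unfolds the substrate with a ring of ATPases and feeds it into the core. In immune cells, and after interferon gamma, newly made particles take up Psmb8, Psmb9 and Psmb10 in place of Psmb5, Psmb6 and Psmb7, which alters the peptides that MHC class I can present. The product of Asb2 is a subunit of a ubiquitin ligase that marks its substrates for this same protease.

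Members of several classes parted on restimulation, the activators among them. The constitutive catalytic genes parted from those of the immunoproteasome, and the stretches of DNA in front of catalytic genes are shown for that reason. Each is the 150 bases before the RefSeq transcription start on the strand of the gene, from the mouse build GRCm38.p6. They lie at chr14:54617996-54618145 (minus strand) for Psmb5, chr11:70525207-70525356 (plus) for Psmb6, chr17:34198045-34198194 (plus) for Psmb8, chr17:34187331-34187480 (minus) for Psmb9 and chr8:105938393-105938542 (minus) for Psmb10. Capitals mark a match to TGACNNNGC, the core of the antioxidant response element to which NFE2L1 and NFE2L2 bind with small MAF proteins, in Psmb5 and Psmb6. In Psmb8 they mark a match to TTCNNNGAA, the gamma-activated site known from genes that interferon gamma induces.
Psmb5: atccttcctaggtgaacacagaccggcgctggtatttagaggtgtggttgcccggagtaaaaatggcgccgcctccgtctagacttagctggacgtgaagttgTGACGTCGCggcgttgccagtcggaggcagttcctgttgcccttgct
Psmb6: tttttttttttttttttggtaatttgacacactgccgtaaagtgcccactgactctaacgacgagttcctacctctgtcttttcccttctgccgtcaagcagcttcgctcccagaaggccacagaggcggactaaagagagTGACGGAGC
Psmb8: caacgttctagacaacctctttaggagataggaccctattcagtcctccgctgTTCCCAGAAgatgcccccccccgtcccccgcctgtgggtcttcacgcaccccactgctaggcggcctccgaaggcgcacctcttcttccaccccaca
Psmb9: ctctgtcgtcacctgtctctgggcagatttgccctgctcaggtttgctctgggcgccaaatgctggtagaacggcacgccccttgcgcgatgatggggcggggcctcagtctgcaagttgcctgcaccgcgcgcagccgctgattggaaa
Psmb10: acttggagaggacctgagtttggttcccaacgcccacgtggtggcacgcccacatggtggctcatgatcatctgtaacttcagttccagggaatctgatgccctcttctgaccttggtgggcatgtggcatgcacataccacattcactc

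The match in Psmb5 began 47 bases before the start, that in Psmb6 began 9 bases before it, and that in Psmb8 began 97 bases before it. Psmb9 and Psmb10 had neither motif in their 300-base windows, which run from 250 bases before the start to 50 after it. Psmb9 held CCAAT on the other strand, 8 bases before the start. The RefSeq table held a promoter of 300 bases for 43 of the 51 members, 47 promoters in all. Psmb7 was not among them.

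Over all 47 promoters the motifs were about as frequent as among the 32851 promoters of the table, with 1 exception. TGACNNNGC, searched on both strands like the others, lay in 6 of the 47 (12.8%) against 12.4% of all promoters. CCAAT, which NF-Y binds, lay in 34% against 37.4%. TTCNNNGAA lay in 6.38% against 8.3%. The core of the interferon-stimulated response element lay in 5 of the 47 (10.6%) against 3.44% of all, and they belonged to Psmb3, Psmd4, Psmd9, Psme1 and Psmg4. The matches in Psme1 and Psmg4 lay after the start. In the 250 bases before the start this core lay in 3 of the 47 (6.38%) against 2.98% of all. Motifs were counted separately, overlaps included, and TTCNNNGAA reads the same on both strands. These are letters in a window, and no test was made of them.

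Before the responses, the libraries were checked. Each held 17.1 to 24.2 M estimated counts, with a biological coefficient of variation of 15.4%. Asb2 was at 34.7, 25.6 and 49.7 CPM in non-stimulated control cells and 34.1, 38.0, 32.3, 31.2 and 31.9 CPM in stimulated control cells, against 12.7, 22.7 and 22.1 and 9.58, 9.59, 9.44 and 9.36 CPM in the matching cKO libraries, so the groups did not overlap in either condition. Groups also did not overlap for 7.86% of all genes without stimulation and 0.659% with it. Which exons the deletion removes is not in the labels. The summed level of the Th2 genes Gata3, Il4, Il5 and Il13 was 569 to 805 CPM without stimulation and 2901 to 4068 CPM with it. That of 6 CD4 T cell genes was 1848 to 2194 CPM without stimulation and 1552 to 1788 CPM with it. Of these 6, 4 fell and 1, Cd5, rose in each genotype. Among all genes 25.2% fell and 25.4% rose in control cells, and 27.1% and 26.7% in cKO cells. Markers of CD8 T cells summed to 5.83 to 28.8 CPM with no separation of the groups, and those of B cells to 0.984 to 4.84 CPM. Markers of endothelium (Cdh5 and Kdr) reached 0.181 CPM at most and those of red cells 0.194 CPM, with 2 of the 3 red cell genes at 0 in every library. Those of germ cells reached 1.18 CPM. Summed markers of natural killer, myeloid and dendritic, and thymic epithelial cells were lower after stimulation. The 2 natural killer genes summed to 3.05 to 18.1 CPM without it and 0.243 to 2.03 CPM with it. The 7 myeloid and dendritic genes summed to 10.8 to 20.5 and 2.37 to 6.25 CPM. The 3 thymic epithelial genes summed to 11.9 to 16.3 and 3.26 to 5.75 CPM. Of the 3 myeloid and dendritic genes tested, 2 fell and 1, Flt3, rose in each genotype. Flt3 was at 0.181 to 0.897 CPM without stimulation and 1.88 to 4.01 CPM with it. One myeloid gene and 1 thymic epithelial gene were at 0 in every library. Whether other cells were present, and what part they had in the results below, was not tested. Replicate 3 of the stimulated cKO cells had 9.43% of its counts from mitochondrial genes, against 4.36 to 6.24% in the other 14 libraries.

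Restimulation raised most proteasome RNAs by less than 2-fold, and none of the 3 immunoproteasome genes was among those that rose. In control cells 33 of the 49 tested members rose and 1, Psmb9, fell at an adjusted p under 0.05 (edgeR quasi-likelihood test, Benjamini-Hochberg adjustment over 15619 genes). Over all genes tested, 25.4% rose and 25.2% fell. In cKO cells 32 members rose and none fell, against 26.7% and 27.1% of all genes. The median log2 fold change of the members was 0.43 in control cells and 0.45 in cKO cells, where that of all genes was 0.002 and -0.009. By edgeR on all 15 libraries no member reached 2-fold, as 7.82% of all genes did in control and 8.49% in cKO cells. In mean TPM, Psmd5 (2.74-fold), Psmd7 (2.12-fold), Psmd11 (2.05-fold) and Psmc2 (2.03-fold) did in control cells. In cKO cells Psmd5 (2.29-fold) and Psme3 (2-fold) did. On the authors' TPM (limma on log2 of TPM plus 0.1) 37 members rose in control cells, with Psma2, Psmb4, Psmc1, Psmd13 and Psmg4 added and Psmd9 lost, and 24 rose in cKO cells, with Psma7, Psmd1, Psmd2, Psmd3, Psmd4, Psmd9, Psmd10 and Psmd14 lost. The same scale left 3754 genes higher and 2108 lower among all genes in control cells, against 3961 and 3936 by edgeR on counts.

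The same 32 members rose in both genotypes, and Psmb2, a beta ring subunit, rose in control cells alone by this test (log2 fold change 0.28 ± 0.11 SE, adjusted p = 0.042 by edgeR, against 0.23 ± 0.11, adjusted p = 0.1). Its call in control cells was lost without any one of the 3 non-stimulated control libraries (0.26 to 0.31, adjusted p 0.058 to 0.12 by edgeR) or without stimulated control replicate 1 or 3 (0.24 and 0.25, adjusted p = 0.078 and 0.076). Every stimulated library lay above every non-stimulated one for 27 members in control cells (23.8% of all genes) and for 33 in cKO cells (26.8%). As a share of each library, the 51 members took 0.294 to 0.322% of the counts of non-stimulated control cells and 0.392 to 0.476% of those of stimulated control cells. The corresponding shares in cKO cells were 0.311 to 0.339% and 0.412 to 0.459%. In bulk RNA a change in the number of cells of one kind and a change in the RNA per cell cannot be told apart.

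**Figure D1:**
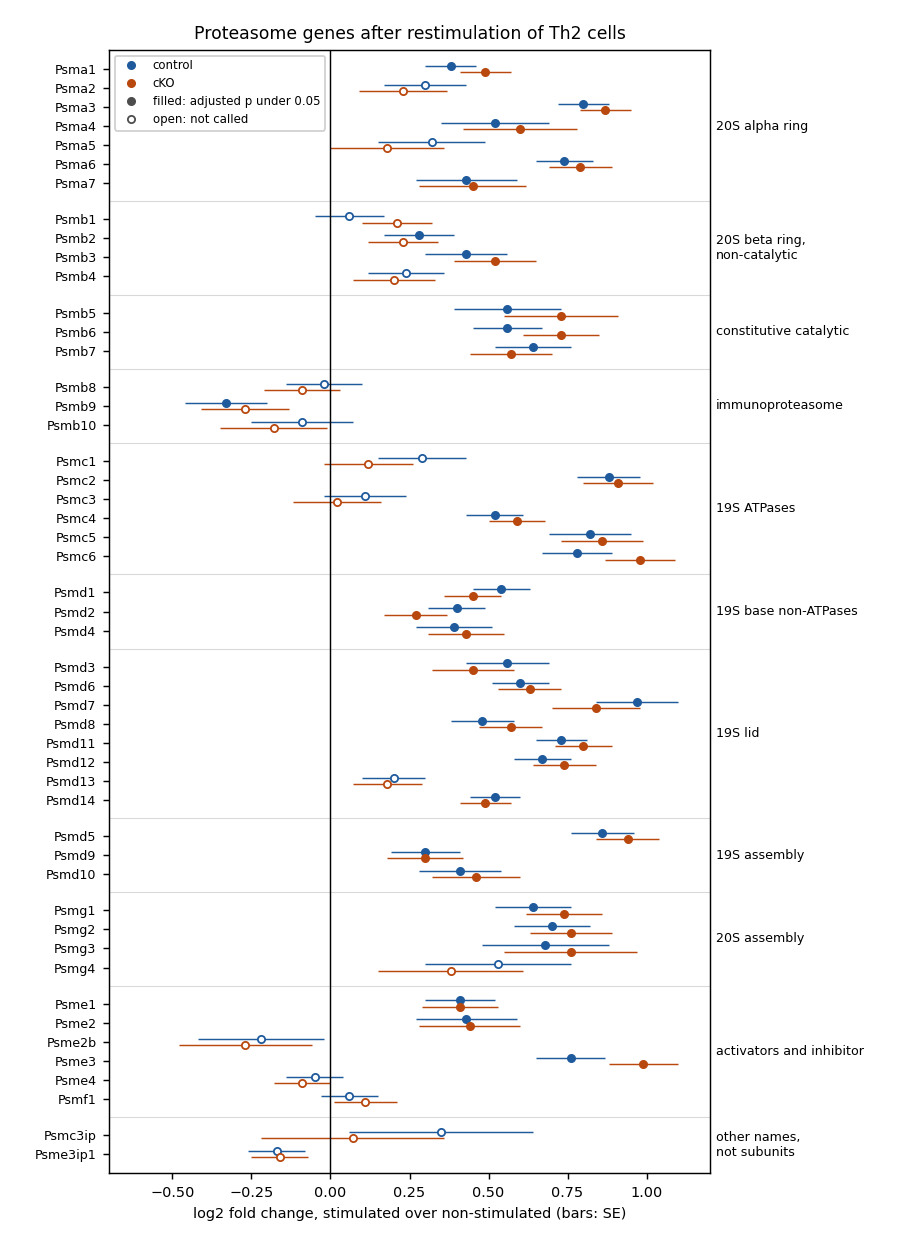
Log2 fold change of each of the 49 tested members on restimulation, grouped by role, in control (blue) and cKO cells (orange); bars are the standard error of the edgeR model, and filled points passed an adjusted p of 0.05. The constitutive subunits and assembly factors sit to the right of 0, whereas the 3 immunoproteasome genes sit at or to the left of it, and no member reaches 1 on the log2 scale.

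The alpha ring forms the gate of the core. Of its 7 genes, 5 rose in each genotype, with a median log2 fold change of 0.43 in control and 0.49 in cKO cells. Psma3 had the smallest p of all members in both genotypes. It stood at 84.2, 78.9 and 90.5 CPM in non-stimulated and 151, 145, 155, 147 and 139 CPM in stimulated control cells. Its cKO levels were 80.7, 79.9 and 85.3 and then 147, 147, 166 and 138 CPM. All 9 stimulated libraries lay above all 6 non-stimulated ones, and the rise was 1.75-fold in control cells (log2 0.80 ± 0.08 SE, adjusted p = 2.5e-07 by edgeR) and 1.83-fold in cKO cells (0.87 ± 0.08, adjusted p = 1.7e-07). Psma2 and Psma5 passed in neither genotype. Their log2 fold changes were 0.30 and 0.32 in control cells and 0.23 and 0.18 in cKO cells. Psma5 turned to -0.02 in cKO cells without non-stimulated replicate 2. Without stimulated control replicate 5 both passed in control cells (0.39 and 0.42, adjusted p = 0.016 and 0.041 by edgeR). Psma4 and Psma7 rose in both genotypes, but each lost its call when 1 library was left out. For Psma4 these were non-stimulated control replicate 2 or 3 (0.43 and 0.50, adjusted p = 0.092 and 0.058 by edgeR) and non-stimulated cKO replicate 2 (0.48, adjusted p = 0.051). For Psma7 they were non-stimulated control replicate 1 or 2 and stimulated control replicate 1 or 3 (0.33 to 0.47, adjusted p 0.059 to 0.17 by edgeR), and in cKO cells non-stimulated replicate 1 or 2 and stimulated replicate 1 or 3 (0.36 to 0.48, adjusted p 0.06 to 0.12).

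Of the 4 beta ring genes without a cutting site, Psmb3 rose in both genotypes and Psmb2 in control cells, and the class medians were 0.26 and 0.22 on the log2 scale. Psmb3 was at 48.3, 42.2 and 58.2 CPM in non-stimulated and 75.4, 65.6, 70.9, 67.3 and 54.3 CPM in stimulated control cells. Its levels in cKO cells were 49.1, 50.7 and 51.4 CPM, then 85.6, 63.0, 79.0 and 61.3 CPM. The control groups overlapped and the cKO groups did not. The log2 fold changes were 0.43 ± 0.13 SE in control cells (adjusted p = 0.01 by edgeR) and 0.52 ± 0.13 in cKO cells (adjusted p = 0.0034). Without non-stimulated control replicate 2 the control value was 0.33 and no longer passed (adjusted p = 0.074 by edgeR). Psmb1 and Psmb4 passed in neither genotype (log2 fold changes of 0.06 to 0.24), though Psmb1 passed in cKO cells without stimulated replicate 2 or 4 (0.30 each, adjusted p = 0.031 and 0.038 by edgeR).

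All 3 constitutive catalytic genes rose in both genotypes, with class medians of 0.56 and 0.73. Psmb6, whose product cuts after acidic residues, was at 57.0, 52.3 and 62.4 CPM in non-stimulated control cells and at 98.1, 88.4, 84.2, 67.0 and 83.4 CPM after stimulation. The cKO libraries went from 54.4, 54.6 and 51.5 CPM to 98.9, 82.4, 94.8 and 79.7 CPM. The lowest stimulated control library, replicate 4, still lay above the highest non-stimulated one. The rise was 1.47-fold in control cells (log2 0.56 ± 0.11 SE, adjusted p = 4e-04 by edgeR) and 1.66-fold in cKO cells (0.73 ± 0.12, adjusted p = 4.1e-05).

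Psmb7, which has the trypsin-like activity, was at 54.2, 44.8 and 43.5 CPM in non-stimulated control cells and 90.8, 69.5, 79.4, 67.6 and 63.2 CPM after stimulation. It was at 48.3, 47.5 and 55.5 CPM in non-stimulated and 81.8, 68.2, 83.8 and 66.1 CPM in stimulated cKO cells. Neither pair of groups overlapped. Its log2 fold changes were 0.64 ± 0.12 SE (adjusted p = 0.00033 by edgeR) and 0.57 ± 0.13 (adjusted p = 0.0012).

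Psmb5, which has the chymotrypsin-like activity and is the site that proteasome inhibitors block, had 25.1, 22.5 and 35.9 CPM in non-stimulated and 49.1, 41.8, 44.7, 34.6 and 34.7 CPM in stimulated control cells. The values in cKO cells were 22.6, 27.9 and 29.4 CPM before and 55.0, 37.0, 45.4 and 38.9 CPM after. Non-stimulated control replicate 3 lay above stimulated replicates 4 and 5, so the control groups overlapped, while the cKO groups did not. Its log2 fold changes were 0.56 ± 0.17 SE (adjusted p = 0.011 by edgeR) and 0.73 ± 0.18 (adjusted p = 0.0023). The control call was lost without non-stimulated control replicate 1 (0.49, adjusted p = 0.054 by edgeR) or replicate 2 (0.43, adjusted p = 0.073).

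None of the immunoproteasome genes rose in either genotype, and 1 of the 3 fell in 1 genotype. Psmb8, which takes the place of Psmb5, was the most abundant of them. Its levels were 155, 137 and 153 CPM in non-stimulated and 175, 151, 160.0, 123 and 123 CPM in stimulated control cells. In cKO cells they were 162, 137 and 169.7 CPM and 165, 143, 145 and 134 CPM. Stimulated libraries lay on both sides of the non-stimulated control ones, and the log2 fold changes of -0.02 ± 0.12 SE and -0.09 ± 0.12 did not pass (adjusted p = 0.91 and 0.54 by edgeR).

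Psmb9, which takes the place of Psmb6, was at 53.7, 47.3 and 58.1 CPM in non-stimulated control cells and at 50.3, 41.7, 42.9, 42.1 and 34.3 CPM after stimulation. Non-stimulated cKO cells had 52.7, 49.6 and 53.7 CPM and stimulated ones 52.7, 42.6, 45.7 and 31.9 CPM. Replicate 1 of each stimulated group lay within the non-stimulated range, so the groups overlapped. Its fall of log2 -0.33 ± 0.13 SE in control cells was just past the threshold (adjusted p = 0.049 by edgeR), and the value of -0.27 ± 0.14 in cKO cells was not (adjusted p = 0.12). The control call was lost when any of 11 of the 15 libraries was left out (-0.33 to -0.26, adjusted p 0.057 to 0.19 by edgeR). These were non-stimulated control replicates 1 and 3, stimulated control replicates 2 to 5, all 3 non-stimulated cKO libraries and stimulated cKO replicates 2 and 3. It was lost with DESeq2 too (-0.33, adjusted p = 0.059). Without stimulated cKO replicate 1 the cKO value became -0.38 and passed (adjusted p = 0.03 by edgeR).

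Psmb10, which takes the place of Psmb7, was the least abundant, at 15.1, 15.7 and 18.8 CPM in non-stimulated and 18.9, 14.98, 18.6, 13.6 and 11.8 CPM in stimulated control cells. The cKO libraries held 16.1, 15.5 and 18.1 CPM before and 19.1, 13.4, 13.2 and 12.7 CPM after, with stimulated replicate 1 the highest of these 7. The log2 fold changes were -0.09 ± 0.16 SE and -0.18 ± 0.17 (adjusted p = 0.69 and 0.39 by edgeR). On the authors' TPM, a scale that moved the median of all genes by 0.14 (control) and -0.09 (cKO), the control values of Psmb8 and Psmb10 turned positive (0.15 and 0.16) while that of Psmb9 stayed below 0 (-0.20), and none of these 3 passed.

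**Figure D2:**
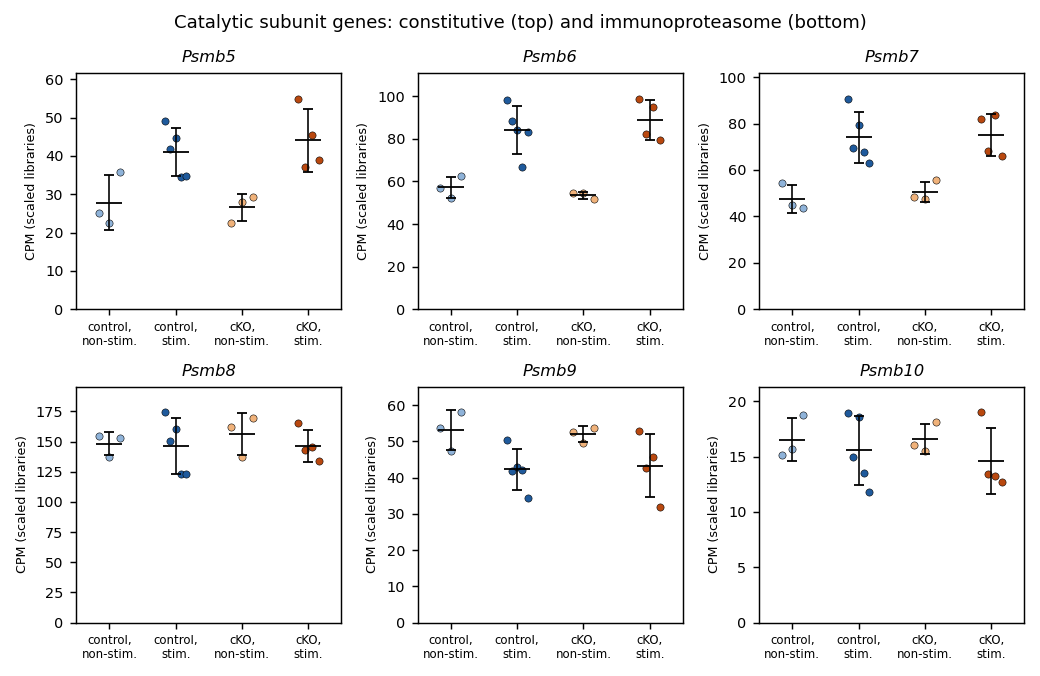
CPM on scaled library sizes of the 3 constitutive catalytic genes (top) and of the immunoproteasome gene that replaces each (bottom), 1 point per library, with mean and SD (n = 3, 5, 3 and 4). The stimulated groups of Psmb6 and Psmb7 lie wholly above the non-stimulated ones, while those of Psmb8, Psmb9 and Psmb10 overlap them.

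Since each immunoproteasome subunit replaces 1 constitutive subunit, their balance was taken within each library as a share of TPM, the authors' level per transcript length. Psmb8 made up 83.9, 83.7 and 79.2% of the RNA of Psmb8 and Psmb5 in non-stimulated control cells and 75.3, 76.2, 75.8, 76.5 and 75.6% after stimulation. The cKO libraries held 85.8, 80.6 and 83.0% and then 71.9, 76.9, 74.6 and 75.2%. Psmb8 thus stayed the more abundant of its pair in all 15 libraries, with a lower share in every stimulated library.

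Psmb9 was the less abundant of its pair throughout. Its share was 38.4% ± 2.49 (SD, n = 3) in non-stimulated and 25.2% ± 3.65 (n = 5) in stimulated control cells. In cKO cells the share was 38.1% ± 2.20 (n = 3) before and 25.4% ± 3.58 (n = 4) after. Neither pair of groups overlapped.

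The share of Psmb10 was 28.6% ± 1.47 (SD, n = 3) in non-stimulated and 20.7% ± 0.741 (n = 5) in stimulated control cells, again without overlap. In cKO cells it was 27.3% ± 3.35 (n = 3) and then 19.9% ± 3.70 (n = 4), where stimulated replicate 1 at 24.0% lay above non-stimulated replicate 2 at 23.6%. Over the 3 pairs together the immunoproteasome share was 59.8, 58.8 and 58.2% in non-stimulated and 47.4, 48.4, 48.9, 50.1 and 44.9% in stimulated control cells. In cKO cells it was 61.7, 56.7 and 60.8% and 46.6, 48.3, 47.0 and 46.6%. The means were 58.9% and 47.9% in control and 59.7% and 47.1% in cKO cells, while the immunoproteasome genes' own summed TPM ran from 233 to 260 and then 231 to 297 in control cells, and from 247 to 303 and then 204 to 284 in cKO cells. No p is given for these shares, which are scores over genes chosen together.

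**Figure D3:**
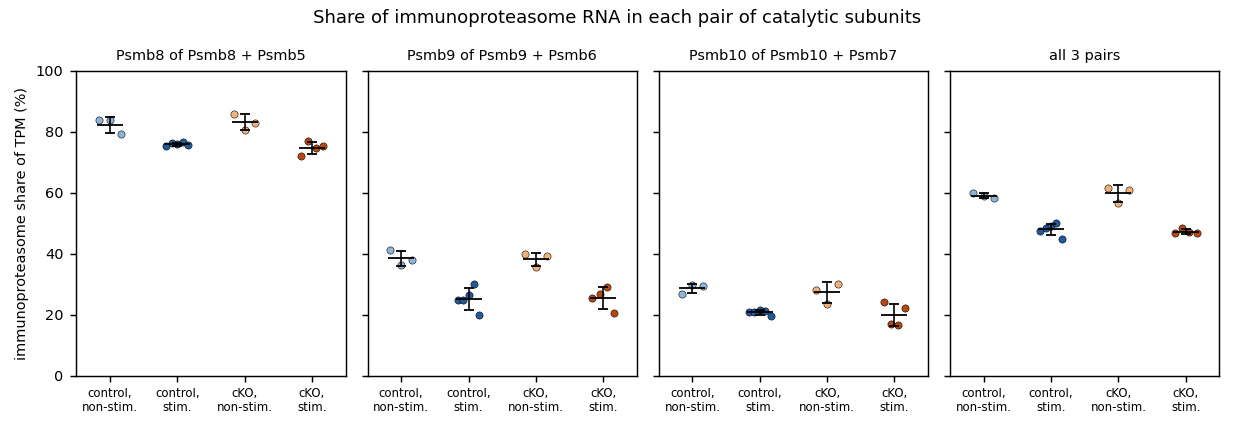
Share of TPM taken by the immunoproteasome gene in each pair of catalytic genes and over the 3 pairs (%), 1 point per library with mean and SD (n = 3, 5, 3 and 4). Psmb8 holds most of its pair in every library and Psmb9 and Psmb10 do not. The stimulated groups lie below the non-stimulated ones in every panel except for the overlap in cKO cells for Psmb10.

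Of the 17 members in the 19S cap, 14 rose in each genotype, with medians of 0.54 and 0.57 on the log2 scale. Cap genes without a Psm name are not counted here. Among the 6 ATPases that unfold the substrate, 4 rose in each genotype (medians 0.65 and 0.72). Psmc6 had the smallest p of them. It stood at 140.2, 119 and 160.0 CPM in non-stimulated and 247, 256, 226, 234 and 236 CPM in stimulated control cells. The cKO values were 127, 134 and 133 CPM, then 229, 244, 319.9 and 248 CPM, with stimulated replicate 3 the highest of all 15 libraries. The rise was 1.71-fold (log2 0.78 ± 0.11 SE, adjusted p = 1.3e-05 by edgeR) and 1.98-fold (0.98 ± 0.11, adjusted p = 1.5e-06). Psmc1 and Psmc3 passed in neither genotype, with log2 values of 0.29 and 0.11 in control and 0.12 and 0.02 in cKO cells. Psmc3 in cKO cells turned to -0.12 on TPM. It turned to -0.07 without stimulated cKO replicate 1 and to -0.01 without non-stimulated cKO replicate 2. Psmc1 passed in control cells without non-stimulated replicate 1 (0.42, adjusted p = 0.035 by edgeR) or stimulated replicate 4 (0.36, adjusted p = 0.04).

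Psmd1, Psmd2 and Psmd4 are the other members in the base, Psmd1 and Psmd2 being its scaffolds and Psmd4 a receptor for ubiquitin. All 3 rose in both genotypes (medians 0.40 and 0.43). Psmd1 was at 96.6, 88.7 and 106 CPM in non-stimulated and 153, 144, 147, 135 and 126 CPM in stimulated control cells, with no overlap. It was at 98.9, 95.5 and 112 CPM and then 144, 138, 139.6 and 137 CPM in cKO cells. Its log2 fold changes were 0.54 ± 0.09 SE (adjusted p = 4.6e-05 by edgeR) and 0.45 ± 0.09 (adjusted p = 0.00036). On TPM the value in cKO cells was 0.36 (adjusted p = 0.074 by limma). Psmd4 lost its control call without non-stimulated control replicate 2 (0.32, adjusted p = 0.064 by edgeR). Psmd2 lost its call in cKO cells without non-stimulated replicate 1 or 2 or stimulated replicate 1 (0.23 to 0.28, adjusted p 0.057 to 0.1 by edgeR).

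The lid holds the enzyme that cuts ubiquitin chains from the substrate, Psmd14, and 7 further members of the lid were tested. Of the 8, 7 rose in each genotype, with medians of 0.58 and 0.60, and Psmd13 alone passed in neither (log2 0.20 and 0.18), except in cKO cells without non-stimulated replicate 3 (0.30, adjusted p = 0.041 by edgeR). Psmd11, a scaffold of the lid, was at 92.4, 92.0 and 113 CPM in non-stimulated and 167, 166, 162, 166 and 161 CPM in stimulated control cells. Non-stimulated cKO cells held 88.4, 103 and 98.8 CPM and stimulated ones 169.5, 158, 174 and 171 CPM. The 9 stimulated libraries fell within a narrow range above the 6 others. The rise was 1.66-fold (log2 0.73 ± 0.08 SE, adjusted p = 1.3e-06 by edgeR) and 1.74-fold (0.80 ± 0.09, adjusted p = 6.6e-07). Psmd14 rose by 0.52 ± 0.08 SE and 0.49 ± 0.08 (adjusted p = 3.5e-05 and 9.4e-05 by edgeR), and its value in cKO cells on TPM was 0.25 (adjusted p = 0.25 by limma). The largest log2 value of any member in control cells was that of Psmd7, another lid gene, at 0.97 ± 0.13 SE (adjusted p = 9.8e-06 by edgeR), and it was 0.84 ± 0.14 in cKO cells (adjusted p = 6e-05).

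Assembly chaperones hold subunits together before the particle is complete. The 3 that build the cap (Psmd5, Psmd9 and Psmd10) rose in both genotypes, with medians of 0.41 and 0.46. Psmd5 was at 34.5, 31.0 and 36.8 CPM in non-stimulated and 63.7, 65.4, 59.6, 64.3 and 56.6 CPM in stimulated control cells. In cKO cells it was at 31.7, 35.4 and 32.9 CPM and 67.4, 62.8, 70.6 and 54.7 CPM. All stimulated libraries lay above the non-stimulated range, and the rise was 1.82-fold in control (log2 0.86 ± 0.10 SE, adjusted p = 8.8e-07 by edgeR) and 1.92-fold in cKO cells (0.94 ± 0.10, adjusted p = 5.1e-07). Psmd9, at log2 0.30 in both genotypes (adjusted p = 0.036 and 0.038 by edgeR), was among the least secure rises. It lost its control call without any non-stimulated control library or stimulated control replicate 1, 2 or 3 (0.27 to 0.32, adjusted p 0.056 to 0.089), and its cKO call without any non-stimulated cKO library or stimulated cKO replicate 1 (0.24 to 0.32, adjusted p 0.061 to 0.11), and on TPM its value in cKO cells was -0.03.

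Of the 4 chaperones of the 20S core, Psmg1, Psmg2 and Psmg3 rose in both genotypes and Psmg4 in neither (medians 0.66 and 0.75). Psmg1, which pairs with Psmg2 on the alpha ring, was at 11.3, 10.4 and 13.8 CPM in non-stimulated and 20.7, 16.2, 18.8, 18.1 and 18.4 CPM in stimulated control cells. It was at 10.5, 13.2 and 10.8 CPM and then 19.6, 18.4, 18.6 and 20.1 CPM in cKO cells. Neither pair of groups overlapped, at log2 fold changes of 0.64 ± 0.12 SE (adjusted p = 0.00023 by edgeR) and 0.74 ± 0.12 (adjusted p = 7.9e-05). Psmg3 lost its control call without non-stimulated control replicate 1 (0.60, adjusted p = 0.052 by edgeR). Psmg4, at 3.29 ± 0.220 CPM (SD, n = 3) in non-stimulated control cells, had log2 values of 0.53 ± 0.23 SE and 0.38 ± 0.23 (adjusted p = 0.061 and 0.18 by edgeR). It passed in control cells without stimulated control replicate 4 (0.63, adjusted p = 0.025) or 5 (0.61, 0.037), or without stimulated cKO replicate 1 (0.53, 0.04).

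Activators open the gate of the 20S core, and here the genes divided. Psme1, Psme2 and Psme3 rose in both genotypes, and Psme4, Psme2b and the inhibitor Psmf1 passed in neither. Psme3 encodes PA28 gamma, a nuclear activator that works without ubiquitin. It stood at 153, 159 and 202 CPM in non-stimulated and 326, 289, 259, 283 and 290.4 CPM in stimulated control cells. The cKO cells went from 149.8, 171 and 140.2 CPM to 302, 302, 277 and 335 CPM. The lowest stimulated library was above the highest non-stimulated one in each genotype, and the rise was 1.69-fold in control (log2 0.76 ± 0.11 SE, adjusted p = 1.2e-05 by edgeR) and 1.98-fold in cKO cells (0.99 ± 0.11, adjusted p = 1e-06), the largest of any member there.

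Psme1 and Psme2 encode the alpha and beta chains of PA28, which interferon gamma is known to induce together with the immunoproteasome. Psme1 was at 151, 149 and 152 CPM in non-stimulated and 224, 189, 223, 204 and 162 CPM in stimulated control cells. Its cKO values were 165, 145 and 161 CPM before and 257, 195, 196 and 189 CPM after. No groups overlapped, and the log2 fold change was 0.41 ± 0.11 SE in control (adjusted p = 0.0061 by edgeR) and 0.41 ± 0.12 in cKO cells (adjusted p = 0.0071).

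Psme2 was at 38.3, 36.4 and 33.7 CPM in non-stimulated and 60.1, 41.5, 58.3, 43.1 and 40.7 CPM in stimulated control cells. It was at 39.3, 32.9 and 39.2 CPM and 64.4, 41.9, 52.7 and 42.0 CPM in cKO cells. In each stimulated group some libraries were only just above the non-stimulated range, and the log2 fold changes were 0.43 ± 0.16 SE (adjusted p = 0.03 by edgeR) and 0.44 ± 0.16 (adjusted p = 0.033). The control call was lost without non-stimulated control replicate 2 or 3 or stimulated control replicate 1 or 3 (0.36 to 0.44, adjusted p 0.058 to 0.1 by edgeR), and the cKO call without any non-stimulated cKO library or stimulated cKO replicate 1 or 3 (0.29 to 0.48, adjusted p 0.052 to 0.12).

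Psme4, which encodes the large activator PA200, was at 150.2, 133 and 166 CPM in non-stimulated and 131, 146, 137, 153 and 156 CPM in stimulated control cells. In cKO cells it was at 149.7, 155 and 156 CPM and 128, 146, 158 and 145 CPM. The groups overlapped in both genotypes, at log2 -0.05 ± 0.09 SE and -0.09 ± 0.09 (adjusted p = 0.66 and 0.43 by edgeR). The control value was 0.24 on TPM, and it turned to 0.03 without non-stimulated control replicate 3.

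Psmf1, which encodes the inhibitor PI31, was at 39.4, 37.2 and 47.6 CPM in non-stimulated and 44.5, 44.2, 40.4, 39.9 and 46.5 CPM in stimulated control cells. It was at 35.6, 40.9 and 39.7 CPM and 41.5, 41.3, 44.0 and 40.4 CPM in cKO cells. Its log2 fold changes were 0.06 ± 0.09 SE and 0.11 ± 0.10 (adjusted p = 0.64 and 0.35 by edgeR), and the control value turned to -0.01 without non-stimulated control replicate 2. The libraries of the stimulated and non-stimulated groups were interleaved.

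Psme2b is a near copy of Psme2, so reads could be split between them. It was at 7.23, 7.80 and 6.71 CPM in non-stimulated and 8.19, 4.81, 7.85, 5.46 and 4.80 CPM in stimulated control cells. Its cKO values were 8.60, 7.18 and 9.80 CPM, then 9.19, 6.48, 5.77 and 6.77 CPM, and the groups overlapped in both genotypes. The log2 fold changes were -0.22 ± 0.20 SE and -0.27 ± 0.21 (adjusted p = 0.39 and 0.28 by edgeR). Of the 51 members, 33 had an estimated count that lay more than 0.01 from a whole number in some library.

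**Figure D4:**
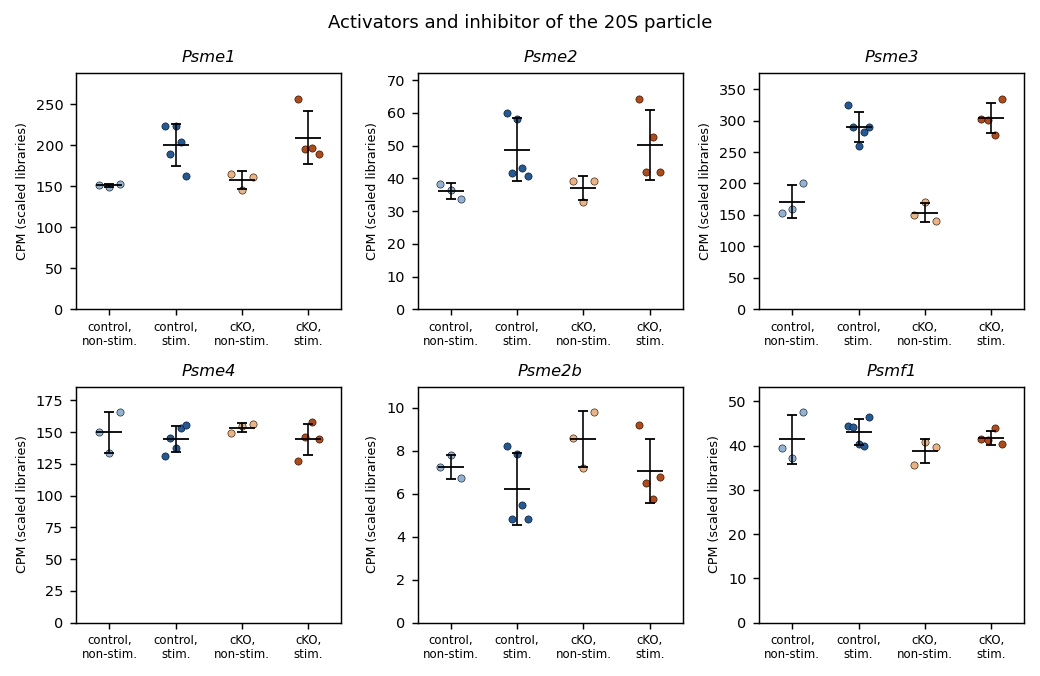
CPM on scaled library sizes of the 5 activator genes and the inhibitor Psmf1, 1 point per library with mean and SD (n = 3, 5, 3 and 4). The stimulated groups of Psme1, Psme2 and Psme3 lie above the non-stimulated ones, and those of Psme4, Psme2b and Psmf1 overlap them.

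The 2 genes that match the name but are no subunits passed in neither genotype. Psme3ip1, whose product binds PA28 gamma, was at 35.4, 35.7 and 39.5 CPM in non-stimulated and 36.1, 33.9, 32.5, 29.8 and 32.0 CPM in stimulated control cells, with log2 fold changes of -0.17 ± 0.09 SE in control and -0.16 ± 0.09 in cKO cells (adjusted p = 0.12 and 0.14 by edgeR). Psmc3ip, a meiotic recombination factor, was at 2.86 to 8.15 CPM in control libraries (log2 fold changes of 0.35 ± 0.29 SE and 0.07 ± 0.29). Without stimulated replicate 3 or non-stimulated replicate 1 its value in cKO cells turned to -0.12 or -0.01.

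Per transcript length, levels of the 31 constitutive subunit genes spread over a 4.96-fold range in non-stimulated control cells, although the subunits of one ring are present in equal number in the particle. The highest was Psmb2 at 136 ± 1.93 TPM (SD, n = 3), followed by Psmc6 at 127 ± 17.5 TPM, a difference within their spread. The lowest was Psma5 at 27.5 ± 3.94 TPM, next to Psmd7 at 27.5 ± 4.09 TPM. After stimulation Psmc6 was highest in both genotypes, at 248 ± 31.4 TPM (n = 5) in control and 254 ± 39.6 TPM (n = 4) in cKO cells. The median of the 31 genes was 43.9 TPM in non-stimulated and 72.9 TPM in stimulated control cells, and 50.9 and 71.7 TPM in cKO cells. Genes of the 20S core were higher than those of the 19S cap, with medians of 76.6 and 37.8 TPM in non-stimulated control cells. The summed TPM of the 14 constitutive core genes was 962 to 1027 in non-stimulated and 1480 to 1682 in stimulated control cells, and that of the 17 cap genes 797 to 852 and 1263 to 1432. In cKO cells the sums were 1058 to 1219 and 1284 to 1646 for the core and 908 to 1006 and 1102 to 1523 for the cap, where the lowest stimulated value of each came from replicate 3, the library with the high mitochondrial share. Activator Psme1 was the most abundant member in every group, at 213, 334, 214 and 348 TPM in the order non-stimulated and stimulated control, non-stimulated and stimulated cKO. Assembly chaperones ran from 6.24 TPM for Psmg3 to 15.5 TPM for Psmg2 in non-stimulated control cells, below the lowest constitutive subunit gene.

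**Figure D5:**
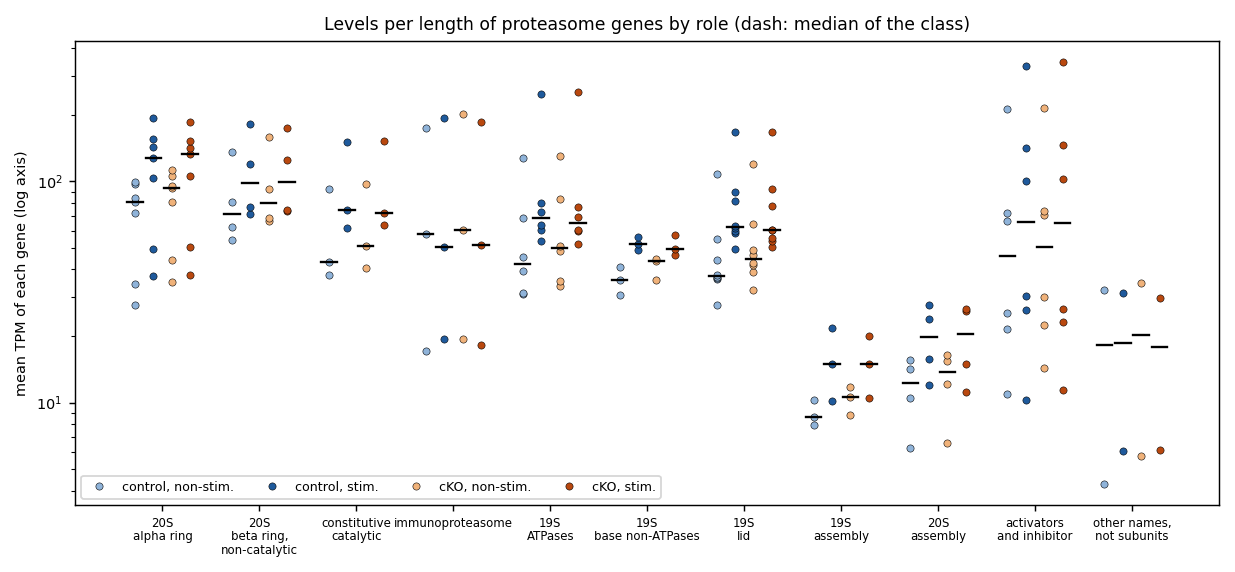
Mean TPM of each member in the 4 groups (log axis), grouped by role, with dashes at the class medians; the 2 tissue-restricted genes are left out. The 3 constitutive catalytic genes and most core genes move up on stimulation in both genotypes, and assembly chaperones sit below the constitutive subunits. Of the immunoproteasome genes, Psmb9 moves down in both genotypes. Psmb8 and Psmb10 move slightly up in control cells (1.11-fold and 1.13-fold) and down in cKO cells.

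Deletion of Asb2 changed no member detectably. In the comparison of cKO with control cells, none of the 49 members passed in the non-stimulated or the stimulated state, and none had an unadjusted p under 0.05 by edgeR. Over all genes 0% passed without stimulation and 0.0064% with it, the latter being Asb2 itself, while 402 and 283 genes had an unadjusted p under 0.05. Without stimulation even Asb2 did not pass (log2 -0.94 ± 0.21 SE, unadjusted p = 0.00033 by edgeR). This limits what the lack of calls among members can show in that state. DESeq2 called no member either. The log2 differences ran from -0.16 ± 0.12 SE for Psme3 to 0.25 ± 0.32 for Psmc3ip in non-stimulated cells, and from -0.09 ± 0.15 for Psmb10 to 0.18 ± 0.18 for Psme2b in stimulated cells. The median SE of a member was 0.13 and 0.11. No member had groups that did not overlap (7.86% and 0.659% of all genes).

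The response to restimulation did not differ detectably between the genotypes for any member. In the interaction test 0 of 49 passed (0% of all genes, 605 of which had an unadjusted p under 0.05), none had an unadjusted p under 0.05 by edgeR, and DESeq2 called none. The smallest p belonged to Psme3, whose rise was larger in cKO cells by 0.23 ± 0.15 SE on the log2 scale (unadjusted p = 0.15, adjusted p = 1 by edgeR). Differences ran from -0.28 for Psmc3ip to that value, with a median SE of 0.17. A gene that passed in 1 genotype and not in the other, here and in the lists below, is therefore not shown to differ between them.

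Genes outside the name rule whose products work on or beside the proteasome were described from a list of 18, of which 17 were tested. These partners include receptors that shuttle ubiquitinated proteins and enzymes that trim ubiquitin on the particle. In control cells 11 of them rose and none fell, where 25.4% of all genes rose and 25.2% fell. In cKO cells 14 of them rose and none fell, where 26.7% of all genes rose and 27.1% fell. The smallest p values were those of the shuttle factor Ubqln1 (log2 0.70 ± 0.10 SE in control, 0.87 ± 0.11 in cKO cells), the deubiquitinase Usp14 (0.54 and 0.60), the adaptor Ecpas (0.57 and 0.57) and the shuttle factor Rad23b (0.39 and 0.59). Pomp, the chaperone on which the beta ring is built, rose by 0.47 and 0.38, and Akirin2, needed to import proteasomes into the nucleus, passed in cKO cells only (0.28 and 0.59).

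Among 10 tested genes that control proteasome transcription, 6 rose and 1 fell in control cells (25.4% and 25.2% of all genes). In cKO cells 6 rose and none fell (26.7% and 27.1% of all genes). The small MAF gene Maff rose most (log2 2.26 ± 0.22 SE in control, 2.62 ± 0.24 in cKO cells), followed by Nfyb, a subunit of NF-Y (0.89 and 0.82). Mafk rose by 0.57 and 0.70 and Nfe2l2 by 0.51 and 0.72. Nfe2l1, known to raise proteasome transcription when the particle is inhibited, rose by 0.47 ± 0.13 SE and 0.70 ± 0.14 (adjusted p = 0.0068 and 0.00044 by edgeR). Ddi2 and Ngly1, which process its protein, passed in neither (log2 -0.14 and 0.14 in control cells), and Nfyc was the gene that fell (-0.28 ± 0.09 in control cells, -0.13 and not passing in cKO cells).

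Of the 9 genes that supply ubiquitin or unfold its targets, 3 rose and 1 fell in each genotype, where 25.4% (control) and 26.7% (cKO) of all genes rose. The ubiquitin-activating enzymes Uba6 (0.58 and 0.56) and Uba1 (0.41 and 0.38) rose in both. The unfoldase gene Vcp rose in control cells (0.35) and was at 0.20, not passing, in cKO cells. The 8 genes of the cytosolic chaperonin, another complex of many equal partners, all rose in both genotypes, with medians of 0.72 and 0.81. Cct6a (0.85 and 0.98), Cct4 (0.76 and 0.87), Cct7 (0.85 and 0.91) and Cct3 (0.92 and 0.98) had its smallest p values.

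Antigen processing genes, which work downstream of the immunoproteasome, moved both ways. Of 9 tested, 1 rose and 4 fell in control cells, where 25.4% of all genes rose and 25.2% fell. In cKO cells 1 rose and 3 fell, where 26.7% of all genes rose and 27.1% fell. Tapbp, which loads peptides onto MHC class I, fell by 1.24 ± 0.12 and by 1.19 ± 0.13 on the log2 scale (SE; adjusted p = 2.6e-07 and 9.1e-07 by edgeR), and its relative Tapbpl rose by 1.29 and 1.58. The MHC gene H2-D1 (log2 -0.44 in control, -0.22 in cKO cells) and the peptide transporter gene Tap1 (-0.41 and -0.22) passed in control cells only. In the RefSeq gene order of GRCm38.p6, Psmb9, Tap1, Psmb8 and Tap2 are consecutive. In control cells 3 of these 4 neighbours fell (25.2% of all genes), Tap2 by 0.22 ± 0.09 (adjusted p = 0.043 by edgeR). Psmb9 was among the 3, and its call was lost when any of 11 of the 15 libraries was left out. In cKO cells Tap2 alone fell (-0.23 ± 0.09, adjusted p = 0.042 by edgeR), where 27.1% of all genes did.

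Interferon gamma is the best known inducer of the immunoproteasome, and the cells had been primed with an antibody against it. Its gene Ifng rose from 0.482, 0.517 and 1.86 CPM to 92.8, 38.8, 61.5, 195 and 36.8 CPM in control cells. In cKO cells Ifng went from 0.560, 0.897 and 1.09 CPM to 90.0, 70.4, 70.4 and 24.4 CPM. Every stimulated library was above every non-stimulated one, at log2 fold changes of 6.40 ± 0.88 SE and 6.21 ± 0.90 (adjusted p = 7.7e-05 and 0.00012 by edgeR). The receptor chain gene Ifngr1 fell by 1.74 and 1.69 on the log2 scale, and Ifngr2 fell by 0.32 in control cells and stood at -0.10 in cKO cells, where it did not pass. Irf1, a transcription factor that activates the immunoproteasome genes, did not pass in either genotype (-0.11 ± 0.14 SE and -0.18 ± 0.15, adjusted p = 0.53 and 0.31 by edgeR).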

How the data were processed

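Libraries were made from total RNA with a stranded kit that removes ribosomal RNA, per the labels' protocols. Per the submitters' processing notes, the authors used cutadapt 3.4, STAR 2.7.9a and Salmon 1.10.1 with the GRCm39 genome; the role of each tool, the annotation release and the strand setting are not given in the sources used here. The authors deposited estimated counts and TPM values (scaled per transcript length within each library) for 56748 genes in 15 libraries. All 15 columns of each table matched a sample title.

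Estimated counts were rounded, filtered (filterByExpr) and scaled (TMM), and 1 quasi-likelihood model with robust dispersion was fitted to the 15 libraries in edgeR 4.0.16 (R 4.3.3). The 5 comparisons were two-sided, with Benjamini-Hochberg adjustment over 15619 genes and calls at an adjusted p under 0.05. CPM values use the scaled library sizes, and errors are SD over libraries or SE of the model. TPM values were used for levels between genes. Reads carry no molecular identifiers, so counts are not numbers of independent molecules.

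The members and the lists of companion genes and markers were chosen with earlier results of these data known. Values per library are given for all catalytic genes and activators and for the member with the smallest p of each class, and lists are given as counts with the 4 smallest p values. Psmb2, Psmd7, Psmd14, Psma2, Psma4, Psma5, Psma7 and other members outside that rule, and Pomp, Akirin2, Nfe2l1, Ddi2, Ngly1, Nfyc, Tap2 and Irf1, were named after their values were seen. Some genes of the companion lists are not reported here. Left out were 5 pseudogene rows, of which Psma5-ps had 3 to 12.8 estimated counts. Alternatives were DESeq2 1.42.0, relative log expression factors, 2 other filters on low counts, a fit to the compared groups alone, a block for the replicate number, no robust dispersion, limma 3.58.1 on log2 of TPM plus 0.1 or 1, and leaving out each library. Promoters came from RefSeq (GRCm38.p6), and no coordinate was moved between builds.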

Additional observations from a re-analysis of the deposited data

Results flagged for a closer look

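Each member or share was looked at within each group of 4 or 5 libraries, which made 106 sets. In 9 of these sets a library was set apart from the rest by Dixon's criterion at 95%. Chance does so in about 1 set in 20, and the sets share libraries, so they are not independent. Of the 9, 5 belonged to replicate 1 of the stimulated cKO cells, and in each it was the highest. Psme1 was at 257 CPM there, against 189 to 196 CPM in the other 3 libraries. Psmd3 was at 138 CPM against 103 to 108 CPM, and Psmb2 at 134.9 CPM against 104 to 108 CPM. Psmb10 was at 19.1 CPM against 12.7 to 13.4 CPM, and Psmg4 at 6.42 CPM against 3.87 to 4.18 CPM. Replicate 3 of the same group, the library with 9.43% mitochondrial counts, had Psmd6 at 75.4 CPM against 65.8 to 66.9 CPM and Psmg2 at 19.5 CPM against 21.4 to 21.6 CPM. In stimulated control cells, replicate 4 had Psmd10 at 15.5 CPM against 18.4 to 19.5 CPM, and replicate 5 had a Psmb10 share of 19.4% against 20.8 to 21.3%. Without stimulated cKO replicate 1, 28 members rose in cKO cells, and without replicate 3, 30 did.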

How the results depend on the processing

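Of the rises at an adjusted p under 0.05, 24 of 33 in control and 22 of 32 in cKO cells were kept in all 24 alternatives, and the calls that rest on 1 library stand beside the genes. Members called higher numbered 31 to 40 in control and 24 to 34 in cKO cells under the alternatives that keep all libraries, and 25 to 36 and 27 to 33 when 1 library was left out. The single member called lower in control cells was called in none (0) of DESeq2, no filter, the replicate block, no robust dispersion and both TPM settings, and in 0 to 1 without 1 library; in cKO cells the count without 1 library was 0 to 1. Genes called lower in control cells numbered 2108 and 2117 on TPM plus 0.1 and plus 1 (3936 by edgeR on counts), and genes called higher in cKO cells 2583 and 2526 (4171).

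Between genotypes without stimulation, DESeq2 called 1 gene higher and 3 lower, TPM plus 1 called 3 higher, no filter 1 lower, and leaving out 1 library 0 to 1 lower. With stimulation DESeq2 called 1 higher and 4 lower. In the interaction DESeq2 called 2 higher and TPM plus 1 called 2 lower. None of these was a member.

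Log2 values that changed sign on TPM plus 0.1 and plus 1 were, in control cells, Psmb8 (0.15 and 0.15), Psmb10 (0.16 and 0.16) and Psme4 (0.24 and 0.23), and in cKO cells Psmc3 (-0.12 and -0.12) and Psmd9 (-0.03 and -0.02). Without 1 library, values that crossed 0 ranged in control cells from -0.08 to 0.04 for Psmb8, -0.15 to 0.02 for Psmb10, -0.13 to 0.03 for Psme4 and -0.01 to 0.17 for Psmf1, and in cKO cells from -0.02 to 0.36 for Psma5, -0.07 to 0.11 for Psmc3 and -0.12 to 0.22 for Psmc3ip. The cause of these changes was not tested. The share of Psmb9 in its pair fell by 16.8 points on CPM in cKO cells and by 12.7 on TPM. Over the 3 pairs the drop was 10.3 to 11.5 points in control and 11.6 to 14.1 in cKO cells without 1 library.

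The labels do not say whether replicate numbers pair the libraries. Deviations of same-numbered libraries of 1 genotype correlated at -0.238 to 0.136 (median 0.1) over 6 pairs, with 3 over 0.1. Those of libraries with different numbers correlated at -0.252 to 0.145 (median -0.006) over 21 pairs, with 5 over 0.1. The same-numbered pairs are too few to settle the point. With the replicate number as a block, 40 members rose in control and 34 in cKO cells, constitutive subunits 30 and 25, and in control cells the log2 value of Psmb8 was 0.10 and that of Psmb10 0.06. Low counts limit Psmg4, Psme2b and Psmc3ip, whose SE was 0.20 to 0.29.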

Other observations

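The fold on TPM and the fold on CPM differed for some members. TPM also divides by the transcript length assigned to a gene in each library. The ratio of the TPM fold to the CPM fold had a median of 1.1 over the 49 members in control cells and 0.948 in cKO cells. In control cells it was largest for the cap chaperone Psmd5, at 1.51 (1.19 in cKO cells), and in cKO cells for Psme1, at 1.22 (1.18 in control cells). Psmd5 was 1.82-fold higher in mean CPM and 2.74-fold higher in mean TPM after stimulation in control cells, and 1.92-fold and 2.29-fold in cKO cells. The lid gene Psmd11 was next in control cells, with a ratio of 1.24 there and 1.08 in cKO cells, and the other chaperone Psmd9 had the lowest, at 0.957 and 0.808. Which transcripts of these genes were present was not tested.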
